A study of Mus musculus with 9 samples.

Results

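The genes described here are 9 that encode the enzymes that cut stored or circulating triglyceride, and the proteins that switch those enzymes on or off. They are Pnpla2, Pnpla3, Lipe, Mgll, Lipc, Lipa and Lipg, with the co-activator Abhd5 and the inhibitor G0s2. Members were found by matching the RefSeq accession of each non-control probe to these symbols, which gave 15 probes of 55681 on the array and 9 genes of 20972. The measurement was gene expression in liver, on 1-colour arrays, in male mice at 20 weeks of age, with 3 arrays in each of 3 groups. No engineered allele is named for any group. STAM mice were C57B/6 J males, per the study's methods, given low-dose streptozotocin as newborns, which injures the insulin-producing beta cells, and then a high-fat diet, and they develop fatty liver disease and liver tumours. STAM-NON mice had no further treatment. STAM-INS mice were injected under the skin with insulin glargine, a long-acting insulin. Normal mice had neither streptozotocin nor the high-fat diet, so each comparison with Normal joins the drug and the diet. Whether the sampled liver held tumour is not given in the sources used here.

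Triglyceride is broken down stepwise. Pnpla2 (adipose triglyceride lipase) removes the first fatty acid at the lipid droplet, Lipe (hormone-sensitive lipase) works mainly on diglyceride, and Mgll (monoglyceride lipase) finishes the reaction. Abhd5 activates Pnpla2 and G0s2 blocks it. Pnpla3 is a droplet protein of the same patatin-like family that is induced by feeding in liver, Lipa is the acid lipase of the lysosome, and Lipc and Lipg are secreted lipases that act on lipoproteins at the vessel wall. Insulin restrains lipolysis in fat tissue, and in liver these enzymes set how much stored fat is released for oxidation or secretion.

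Levels are given as centred log2 signal, the log2 of the background-subtracted spot intensity after subtraction of that array's 75th percentile, so that 0 marks that percentile. No probe's level is set against that of another probe. A difference is the first group minus the second. Between 46.2% and 65.0% of non-control spots were well above background on an array. The highest shares were on STAM-NON 1 (59.3%), STAM-NON 3 (63.1%) and STAM-INS 1 (65.0%). All STAM arrays lay on one slide and all Normal arrays on another, so slide and group cannot be told apart in either comparison with Normal. The STAM-NON arrays and STAM-INS 1 had row number 1 on the slide, and STAM-INS 2, STAM-INS 3 and the Normal arrays had row number 2. Row and group therefore cannot be told apart in STAM-NON against Normal either, and only STAM-INS links the rows. Hepatocyte markers were detected throughout, with all 12 genes of that list tested, and their summed signal was 5383 to 7074 times the 75th percentile in STAM-NON, 6651 to 7424 in STAM-INS and 7757 to 8051 in Normal. In whole liver, fewer cells of a type and less RNA per cell cannot be told apart.

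The lipase genes were read against a threshold of 0.05 on the adjusted p from limma over 26289 tested probes, with 1 probe, the brightest tested one, standing for each gene. Of the 9 genes, 8 had a tested probe, and Lipg did not. In STAM-NON against Normal, 1 of the 8 genes passed, Lipc, which was lower, beside 15.6% of all tested probes (6.36% higher and 9.2% lower). In STAM-INS against Normal, 2 of 8 passed, Pnpla3 higher and Lipc lower, beside 13.6% of all probes (5.19% higher and 8.45% lower). Between STAM-INS and STAM-NON, 0 of 8 passed limma's adjusted threshold, beside 0.0951% of all probes (0.0114% higher and 0.0837% lower), and Lipc had an unadjusted p under 0.05, as did the second probe of Pnpla3 (0.0268), while the methods' t-test also called 0. The median difference over the 8 genes was -0.17 between STAM-NON and Normal, 0.02 between the STAM groups and -0.28 between STAM-INS and Normal, the order kept below. Over all tested probes it was -0.13, 0.02 and -0.09. With 8 genes, these counts are too small to set apart from the shares over all probes. Pnpla3 entered the tests only through STAM-INS, the group in which it was then called higher, so its call adds nothing to the count. The comparisons share arrays, so their counts are not independent of each other.

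**Figure D1:**
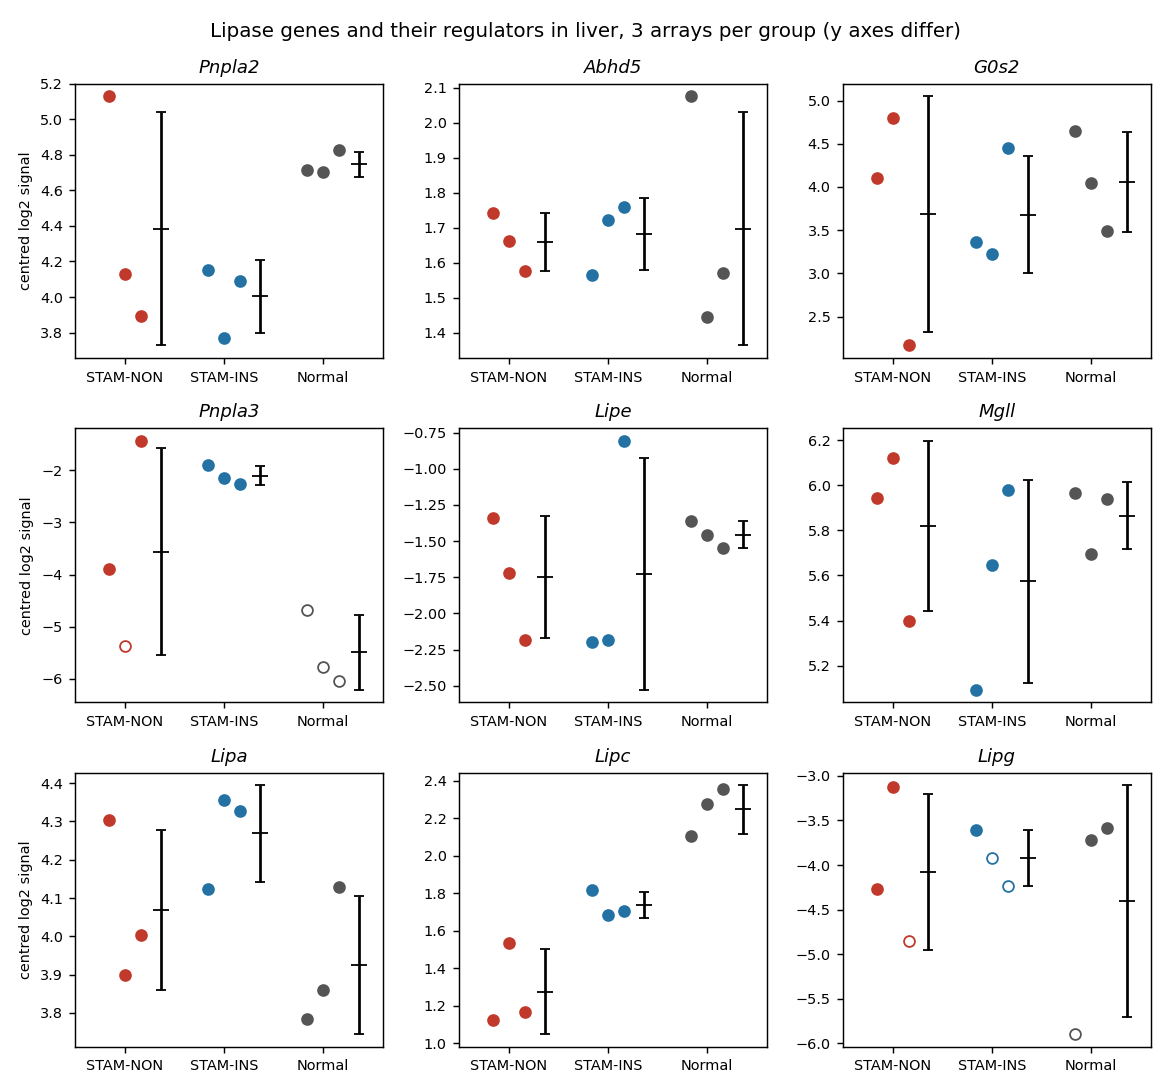
Centred log2 signal (y axis, a different range in each panel) of the 9 genes on each array, grouped by STAM-NON, STAM-INS and Normal on the x axis. Points are arrays in the order of their replicate numbers, open where the probe was not well above background, and the black mark with bars is the mean ± SD of the 3 arrays. Lipc stands lowest in STAM-NON and highest in Normal with no overlap, and Pnpla3 is open on all Normal arrays.

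**Figure D2:**
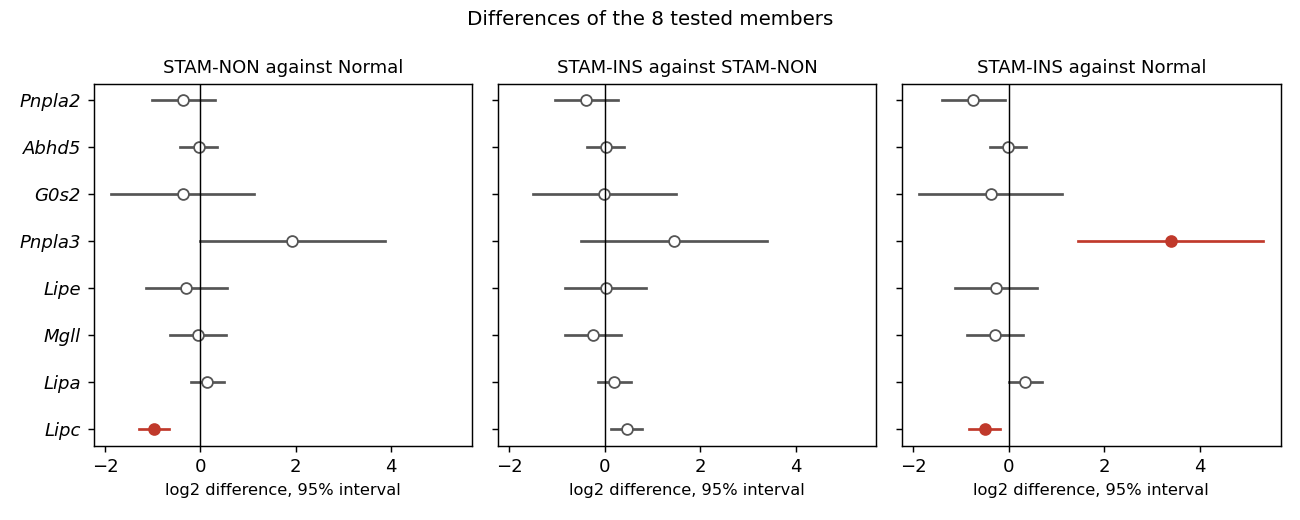
Log2 difference (x axis) with its 95% interval from limma for the 8 tested genes (y axis) in the 3 comparisons. Filled red points passed the threshold. These are Lipc in both comparisons with Normal and Pnpla3 in STAM-INS against Normal, and every interval of G0s2 crosses 0.

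Pnpla2, its co-activator and its inhibitor were all well above background on the 9 arrays, and none of them passed the threshold. The signal of Pnpla2 was 5.13, 4.13 and 3.89 in STAM-NON, 4.15, 3.77 and 4.09 in STAM-INS and 4.71, 4.70 and 4.83 in Normal. All STAM-INS arrays were below all Normal arrays, while STAM-NON 1 was above every Normal array and the other two STAM-NON arrays were below them. The difference was -0.74 ± 0.29 (SE) in STAM-INS against Normal, with a 95% interval from -1.40 to -0.08 and a limma adjusted p of 0.118. It was -0.36 ± 0.29 in STAM-NON against Normal (limma adjusted p = 0.393) and -0.38 ± 0.29 in STAM-INS against STAM-NON (limma adjusted p = 0.753). STAM-NON 1 decided much of this. Without it, the Pnpla2 difference from Normal in STAM-NON was -0.73, with a limma adjusted p of 0.0438, and the adjusted p in STAM-INS against Normal was 0.0185.

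Abhd5, also known as CGI-58, was measured by 3 probes, and on each of them STAM and Normal arrays overlapped. On the brightest probe its signal was 1.74, 1.66 and 1.58 in STAM-NON, 1.57, 1.72 and 1.76 in STAM-INS and 2.08, 1.45 and 1.57 in Normal. The 9 differences of the 3 probes lay between -0.19 and 0.04, and their lowest limma adjusted p was 0.484. On the brightest probe, the 95% interval in STAM-INS against Normal ran from -0.40 to 0.37. Among the members well above background on all 9 arrays, G0s2 had the widest range, with 4.11, 4.79 and 2.17 in STAM-NON, 3.36, 3.23 and 4.45 in STAM-INS and 4.65, 4.04 and 3.49 in Normal. STAM-NON 3 was the lowest array. The groups overlapped, the differences were -0.37, -0.01 and -0.38 in the order of the comparisons above, each with an SE of 0.65, and the 95% interval in STAM-INS against STAM-NON ran from -1.50 to 1.49.

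Since Abhd5 and G0s2 act on the Pnpla2 protein, the log2 ratio of Pnpla2 to each was taken within an array and compared between groups. Its own size has no meaning, because it comes from different probes. The ratio of Pnpla2 to Abhd5 was 2.58, 2.05 and 2.33 in STAM-INS and 2.64, 3.26 and 3.25 in Normal, and 3.39, 2.47 and 2.32 in STAM-NON. It did not overlap between STAM-INS and Normal, with a difference of -0.73 and a two-sided exact permutation p of 0.1, the smallest that 3 arrays against 3 allow, or 0.45 after adjustment over the 9 ratio tests. The ratio of Pnpla2 to G0s2 overlapped in each comparison and differed by 0.01, -0.37 and -0.36 in the order of the comparisons above.

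Pnpla3 was the member with the widest range of signal over the 9 arrays, and it had no measured level in Normal. On its brighter probe it was -3.89, -5.36 and -1.43 in STAM-NON, -1.90, -2.15 and -2.25 in STAM-INS and -4.67, -5.77 and -6.03 in Normal. It was well above background on all 3 STAM-INS arrays, on 2 STAM-NON arrays (1 and 3) and on 0 Normal arrays. STAM-NON 3 was as high as the STAM-INS arrays, STAM-NON 1 lay between them and the Normal arrays, and STAM-NON 2 was not above background. With each Normal array raised to its lowest signal well above background, Pnpla3 was 3.48-fold higher in STAM-INS than in Normal. That floor comes from any probe on the array, so the fold is not a strict lower limit for this probe. The fitted difference was 3.39 ± 0.85 (SE), with a limma adjusted p of 0.0361. Since both probes entered the tests only through STAM-INS, and the Normal values lay in the background, this difference is not a measured size, and the p does not stand apart from the filter. The second probe read -4.97, -5.83 and -1.86 in STAM-NON, -2.53, -1.33 and -1.71 in STAM-INS and -5.48, -5.93 and -6.15 in Normal. For STAM-INS against Normal it gave 4.12-fold over the same floor and a limma adjusted p of 0.0248, with the same limits as the brighter probe.

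STAM-NON 3 also carries the comparison of the STAM groups for Pnpla3. In STAM-INS against STAM-NON the difference was 1.46 ± 0.85 on the brighter probe and 2.36 ± 0.88 on the other, with limma adjusted p of 0.653 and 0.520. Without STAM-NON 3 the same differences were 2.52 and 3.54, with limma adjusted p of 0.133 and 0.0287. In STAM-NON against Normal the brighter probe differed by 1.93 ± 0.85 (limma adjusted p = 0.144), and by 2.83 without STAM-NON 2 (0.0289) and 0.86 without STAM-NON 3 (0.292). The share of spots above background was high on STAM-NON 3 and STAM-INS 1, and it was 47.8% and 49.8% on STAM-INS 2 and STAM-INS 3. Its part in the Pnpla3 signal was not tested. STAM-INS 2 and STAM-INS 3 differed by 3.29 from the Normal arrays, which have the same row number on the other slide. Without the 3 arrays with the highest shares, a setting chosen after the data were seen, the STAM-INS against Normal difference was 3.29 with a limma adjusted p of 0.0165, and that of STAM-NON 2, the 1 array left in its group, against Normal was 0.13. The call in STAM-INS against Normal was lost when any 1 of the 3 STAM-INS or 3 Normal arrays was left out (differences from 3.12 to 3.80, limma adjusted p from 0.0626 to 0.112), and after normexp background correction the difference was 0.67 (0.0810).

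The gene whose profile over the 9 arrays lay nearest to that of Pnpla3, by the root mean square difference of mean-centred values among 13384 genes, was its neighbour in the genome and relative in the family, Pnpla5 (0.50 on the log2 scale, against an SD of 1.81 for Pnpla3 itself). Pnpla5 encodes another patatin-like lipase, and no other protein-coding gene lies between them in the RefSeq table. Its signal was -5.35, -5.65 and -1.99 in STAM-NON, -2.46, -1.84 and -2.53 in STAM-INS and -5.61, -5.84 and -6.08 in Normal. The same 4 arrays were therefore high for both genes, namely STAM-NON 3 and the 3 STAM-INS arrays. Over the same floor, Pnpla5 was 3.08-fold higher in STAM-INS than in Normal, where it was well above background on 0 arrays. Over 21 alternatives the fitted difference ran from 0.73 to 3.69. The call was lost in 9 of them, 6 with 1 array left out. Pnpla5 was picked for its likeness and entered the tests only through STAM-INS, so these values describe the pattern and do not test it. Next nearest were Fabp5, a fatty acid binding protein (0.55), and Nfe2, a transcription factor of blood cells (0.59).

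**Figure D3:**
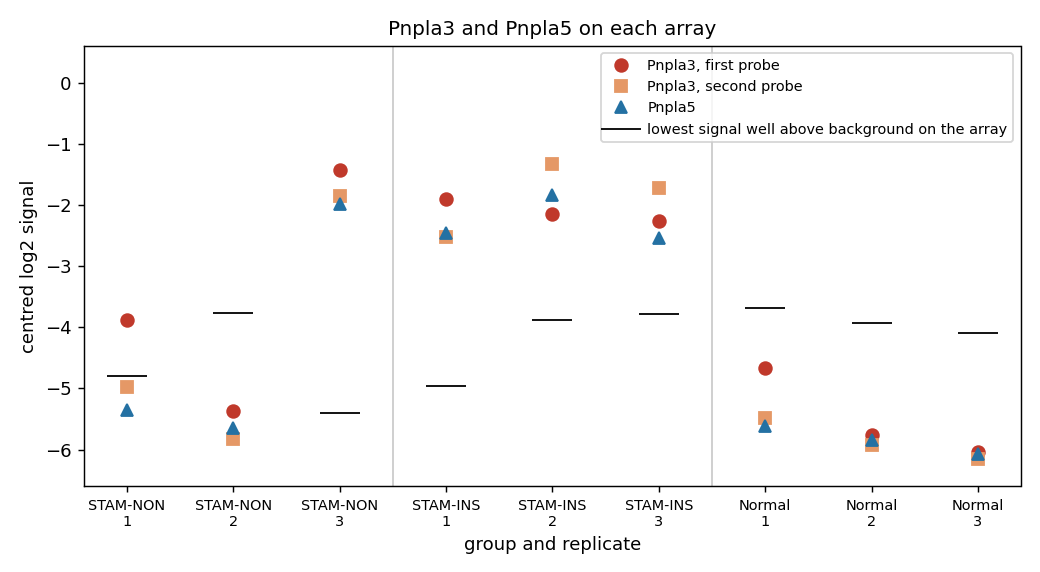
Centred log2 signal (y axis) of both Pnpla3 probes and of Pnpla5 on each of the 9 arrays (x axis). Black bars mark the lowest signal well above background on that array. The 3 STAM-INS arrays and STAM-NON 3 lie at -2.53 or higher for all 3 probes, and the 3 Normal arrays lie at -4.67 or lower.

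The upstream sequences of Pnpla3 and Pnpla5 are shown because both genes were high on the same arrays. They are the 250 bases before the RefSeq start (GRCm38.p6, gene strand, 5′ to 3′), at chr15:84167566-84167815 on the + strand for Pnpla3 and chr15:84123176-84123425 on the - strand for Pnpla5. Capitals mark matches on either strand to the letters CCAAT, to the GC box GGGCGG and to the E-box CACGTG, which is the core that bHLH factors such as SREBP-1c and ChREBP bind.
Pnpla3: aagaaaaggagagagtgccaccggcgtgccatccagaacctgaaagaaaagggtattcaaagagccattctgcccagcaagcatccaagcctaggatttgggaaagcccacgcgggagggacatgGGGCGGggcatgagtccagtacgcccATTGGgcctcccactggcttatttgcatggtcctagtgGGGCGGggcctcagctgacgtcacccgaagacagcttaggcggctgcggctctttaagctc
Pnpla5: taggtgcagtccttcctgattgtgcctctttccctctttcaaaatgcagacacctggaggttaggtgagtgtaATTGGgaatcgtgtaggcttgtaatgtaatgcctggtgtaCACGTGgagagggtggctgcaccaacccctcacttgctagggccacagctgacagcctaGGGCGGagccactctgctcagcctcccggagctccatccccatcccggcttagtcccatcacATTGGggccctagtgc
Both windows held a CCAAT match, found in 33.8% of the 32851 promoters in the table, and a GC box, found in 32.7%. Pnpla5 held an E-box, 137 bases before the start, a match that 6.02% of promoters have, and the Pnpla3 window held none. Neither held the sterol regulatory element TCACNCCAC (1.05% of promoters) or the FOXO letters TGTTTAC (3.17%). A match is a run of letters and not evidence of binding. Among the factors, Srebf1, which encodes SREBP-1c, differed from Normal by 0.32 ± 0.32 in STAM-NON and 0.15 ± 0.32 in STAM-INS (limma adjusted p = 0.490 and 0.780), while Mlxipl, which encodes ChREBP, was lower, with differences of -1.17 ± 0.17 and -0.62 ± 0.17 (0.00860 and 0.0443, the latter above 0.05 in 11 of 21 alternatives, 5 of them with 1 array left out).

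The downstream enzymes Lipe and Mgll did not pass the threshold. Lipe, the target of hormone-stimulated phosphorylation in fat cells, was -1.34, -1.72 and -2.18 in STAM-NON, -2.20, -2.19 and -0.80 in STAM-INS and -1.36, -1.46 and -1.55 in Normal. STAM-INS 3 was the highest of the 9 arrays, and the 3 groups overlapped. The differences of Lipe were -0.29, 0.02 and -0.27 in the order of the comparisons above, each with an SE of 0.37, and the lowest limma adjusted p was 0.598. Mgll, which also degrades the endocannabinoid 2-arachidonoylglycerol, was 5.94, 6.12 and 5.40 in STAM-NON, 5.09, 5.65 and 5.98 in STAM-INS and 5.96, 5.69 and 5.94 in Normal on its brightest probe. Its 3 tested probes gave differences from -0.31 to 0.06, with limma adjusted p of 0.453 or more. STAM-NON 3 and STAM-INS 1 had the lowest values on all 3 of these probes.

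Lipa, whose product digests lipid delivered to lysosomes, was well above background on all arrays, at 4.30, 3.90 and 4.0 in STAM-NON, 4.12, 4.36 and 4.33 in STAM-INS and 3.78, 3.86 and 4.13 in Normal. STAM-INS arrays were the highest in the mean, and the ranges of STAM-INS and Normal met at STAM-INS 1 and Normal 3. The difference was 0.34 ± 0.15 in STAM-INS against Normal (95% interval 0.00 to 0.69, limma adjusted p = 0.153), and 0.14 ± 0.15 and 0.20 ± 0.15 in the other comparisons, in their order above. Lipa is abundant in macrophages, and the summed signal of the 11 macrophage markers on the array was 179.9 to 299.6 times the 75th percentile in STAM-NON, 155 to 318 in STAM-INS and 98.7 to 144 in Normal. Beside 7.94% and 6.18% of all tested genes called higher, 5 of the 11 rose in STAM-NON against Normal and 4 of 11 in STAM-INS against Normal. Gpnmb, counted in STAM-NON, was well above background on 0 Normal arrays and 1 STAM-INS array. It entered the tests only through STAM-NON, so its call adds nothing to that count. Of these markers, Trem2 was higher by 2.93 in STAM-NON. Their part in the level of Lipa was not tested.

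Lipc, the hepatic lipase that hepatocytes secrete, was the member with the clearest group pattern. Its signal was 1.12, 1.54 and 1.17 in STAM-NON, 1.82, 1.69 and 1.71 in STAM-INS and 2.10, 2.28 and 2.36 in Normal. The 3 groups did not overlap, with STAM-NON lowest, STAM-INS between and Normal highest. Lipc fell 1.96-fold in STAM-NON against Normal (difference -0.97 ± 0.14, limma adjusted p = 0.00892) and 1.42-fold in STAM-INS against Normal (-0.51 ± 0.14, limma adjusted p = 0.0463). In STAM-INS against STAM-NON it was 1.38-fold higher, a difference of 0.46 with a 95% interval from 0.14 to 0.78 and an unadjusted limma p of 0.00986. After adjustment over all probes that p was 0.472, so this step did not pass the threshold.

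The call in STAM-NON against Normal was kept when each array was left out in turn (limma adjusted p from 0.00382 to 0.0384). It was lost with the row number on the slide as a block (-1.09, 0.175), with no filter on dim probes (0.0586) and by the methods' t-test (0.0779). Over all probes, those settings called 0.0571%, 0.435% and 0.0989% in that order, against 15.6% in the main fit. Without the 3 arrays with the highest share of spots above background, which leaves 1 STAM-NON array, the difference was -0.71. The call in STAM-INS against Normal was lost in 13 of 22 alternatives, among them the omission of any 1 STAM-INS or Normal array (-0.58 to -0.45, limma adjusted p from 0.0742 to 0.144). STAM-INS 2 and STAM-INS 3 differed by -0.55 from the Normal arrays, which have the same row number on the other slide, and STAM-INS 1 differed by 0.54 from the STAM-NON arrays, with which it shares a row. The summed signal of the hepatocyte markers was lower on all STAM arrays than on all Normal arrays. Of the 12 markers, 2 were higher and 10 lower in mean in STAM-NON than in Normal, with a median of -0.29, and 4 were higher and 8 lower in STAM-INS, with a median of -0.23. In STAM-NON against Normal, 2 of the 12, Cps1 and Asgr1, fell, with differences of -0.66 and -0.51, beside 8.39% of all tested genes called lower. In STAM-INS against Normal, 1 marker, Cps1, fell, beside 7.29% called lower. Their part in the level of Lipc was not tested.

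By the same measure of likeness, the genes nearest to Lipc over the 9 arrays were Cyp2j8, a cytochrome P450 (0.08), Gcat, an enzyme of threonine breakdown (0.08), and Tmprss7, a membrane serine protease (0.10), against an SD of 0.44 for Lipc. In STAM-NON against Normal these genes differed by -0.86, -0.96 and -0.85, with limma adjusted p of 0.0132, 0.00842 and 0.0110. They were picked for their likeness, so their values describe the pattern and do not test it. RefSeq lists 2 start sites for Lipc, and the 250 bases before each are shown because Lipc was the member called in both comparisons with Normal. The upstream site is at chr9:70952222-70952471 and the downstream site at chr9:70934809-70935058, both on the - strand of GRCm38.p6, with capitals as above.
Lipc, upstream site: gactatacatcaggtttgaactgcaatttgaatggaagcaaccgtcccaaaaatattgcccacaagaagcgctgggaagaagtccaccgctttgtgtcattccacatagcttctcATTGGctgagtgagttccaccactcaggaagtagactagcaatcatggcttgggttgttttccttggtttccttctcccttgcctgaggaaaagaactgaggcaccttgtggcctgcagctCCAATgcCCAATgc
Lipc, downstream site: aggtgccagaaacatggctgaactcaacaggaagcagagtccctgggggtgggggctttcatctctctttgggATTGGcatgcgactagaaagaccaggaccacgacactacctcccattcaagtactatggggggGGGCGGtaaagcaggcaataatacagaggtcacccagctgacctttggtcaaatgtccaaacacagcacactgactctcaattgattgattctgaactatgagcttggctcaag
The upstream window held 3 CCAAT matches, 135, 14 and 7 bases before the start. The downstream window held 1 CCAAT match, 177 bases before the start, and 1 GC box, 114 bases before it. Neither held an E-box, the sterol regulatory element or the FOXO letters. Among all 8 members with a promoter in the table (11 promoters), E-boxes were found at 1 site each of Lipe and Mgll, and the FOXO letters likewise at 1 site each of Lipe and Mgll.

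Lipg, the endothelial lipase, was near background. It was well above background on 5 of the 9 arrays, 2 of STAM-NON, 1 of STAM-INS and 2 of Normal. Its signal was -4.26, -3.13 and -4.85 in STAM-NON, -3.60, -3.92 and -4.23 in STAM-INS and -5.90, -3.72 and -3.59 in Normal. The groups overlapped and the probe was not tested.

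The wider set of lipases and neutral lipid hydrolases includes the carboxylesterases and lipoprotein lipase. Of 22 tested genes, 1 was higher and 7 were lower in STAM-NON against Normal, and 2 were higher and 6 lower in STAM-INS against Normal, while 0 passed limma's threshold in STAM-INS against STAM-NON. Pnpla5, counted as higher in STAM-INS, entered the tests only through that group, so its call adds nothing to the count. With 1 probe per gene, 16.3% of all tested genes were called between STAM-NON and Normal (7.94% higher and 8.39% lower), 13.5% between STAM-INS and Normal (6.18% higher and 7.29% lower) and 0.0822% between the STAM groups (0.0224% higher and 0.0598% lower). The median difference of the list was -0.43 in STAM-NON against Normal and -0.42 in STAM-INS against Normal. Lpl, lipoprotein lipase, which is low in adult hepatocytes, was 3.94, 2.43 and 3.36 in STAM-NON, 2.86, 3.03 and 2.75 in STAM-INS and 1.32, 1.03 and 1.46 in Normal. All STAM arrays were above all Normal arrays. Lpl was 3.92-fold higher in STAM-NON (limma adjusted p = 0.0131) and 3.05-fold higher in STAM-INS (0.0201) than in Normal. Macrophages also make Lpl, and the macrophage markers given above rose in the same comparisons. Their part was not tested.

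The lower members of that list were mostly carboxylesterases, liver enzymes of the endoplasmic reticulum that hydrolyse esters and, in some cases, triglyceride. Ces2a was 6.56-fold lower in STAM-NON (difference -2.71 ± 0.32, limma adjusted p = 0.00497) and 5.15-fold lower in STAM-INS (-2.37 ± 0.32, 0.00471) than in Normal. Ces2c was 4.77-fold and 4.22-fold lower (0.00637 and 0.00501), and Ces1e 2.61-fold and 2.49-fold lower (0.0205 and 0.0229). Ces1g, Ces1d and Aadac also fell in STAM-NON against Normal, and Ces1g fell in STAM-INS against Normal as well (-0.89 ± 0.24, limma adjusted p = 0.0465). Abhd6, a monoglyceride hydrolase, fell in STAM-INS against Normal (difference -1.64 ± 0.42, limma adjusted p = 0.0378). Within the patatin-like family, Pnpla1 fell in both comparisons with Normal (-1.10 and -1.33, limma adjusted p = 0.0383 and 0.0225). Pnpla6, Pnpla7 and Pnpla8 did not pass in either, with differences from -0.18 to 0.44.

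**Figure D4:**
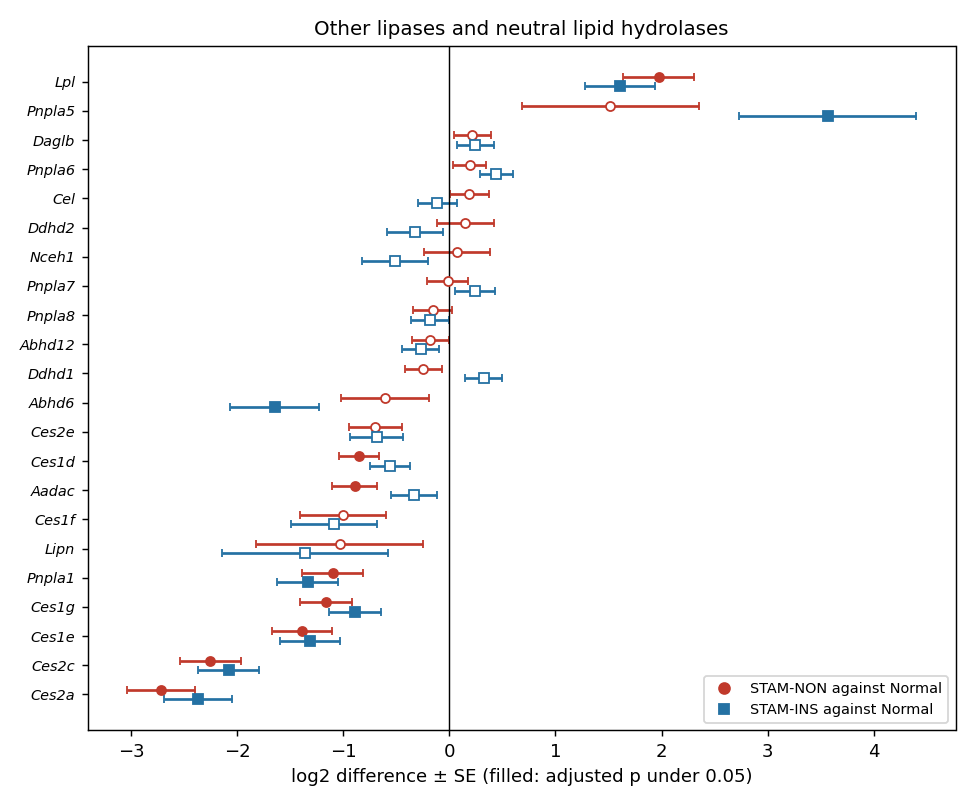
Log2 difference from Normal ± SE (x axis) of the 22 tested genes of the wider lipase list (y axis, ordered by the STAM-NON difference), with circles for STAM-NON and squares for STAM-INS, filled where the adjusted p was under 0.05. Both comparisons use the same 3 Normal arrays. Lpl and Pnpla5 lie to the right, and Ces2a (-2.71 in STAM-NON) farthest to the left.

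Among 22 cofactors, inhibitors and transport factors of lipases, 0 were higher and 2 lower in STAM-NON against Normal, and 0 higher and 1 lower in STAM-INS against Normal. Over all tested genes, 16.3% and 13.5% were called in these comparisons. Angptl4, an inhibitor of lipoprotein lipase and a target of PPAR receptors, was 7.11, 6.87 and 6.26 in STAM-NON, 5.33, 6.50 and 5.97 in STAM-INS and 7.39, 7.36 and 7.54 in Normal. All STAM arrays were below all Normal arrays. It was 2.83-fold lower in STAM-INS than in Normal (limma adjusted p = 0.0195, above 0.05 in 6 of 21 alternatives, 4 of them with 1 array left out), and -0.68 in STAM-NON against Normal (0.151). The 2 lower genes in STAM-NON were Lmf1, needed for folding of secreted lipases such as Lipc, Lpl and Lipg (-0.54 ± 0.14, limma adjusted p = 0.0393), and Aup1, a droplet protein of the ubiquitin pathway (-0.53 ± 0.12, 0.0289). Hilpda, an inhibitor of Pnpla2, was higher than Normal by 1.18 ± 0.35 and 1.21 ± 0.35 without passing the threshold (limma adjusted p = 0.0562 in both).

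The lipid droplet list, the surface on which Pnpla2, Pnpla3 and G0s2 act, had 14 tested genes. Of these, 2 rose in STAM-NON against Normal and 1 in STAM-INS against Normal, beside 7.94% and 6.18% of all tested genes. Acsl3, a fatty acid activating enzyme of nascent droplets, rose by 0.98 ± 0.16 and 0.96 ± 0.16 (limma adjusted p = 0.0123 and 0.0100). Cidea, a droplet fusion protein, was 5.87, 1.72 and 1.80 in STAM-NON, -0.06, -0.84 and 0.48 in STAM-INS and -4.08, -3.59 and -2.57 in Normal, where 1 of 3 arrays measured it well above background. It rose in STAM-NON against Normal, with a fitted difference of 6.54 ± 1.03 (limma adjusted p = 0.0111). STAM-NON 1 was far above the other STAM-NON arrays, and without it the difference was 5.17 (limma adjusted p = 0.00734). With 1 Normal array measured, the size of this difference is uncertain. Cidea entered the tests only through the STAM groups, so its p does not stand apart from the filter. Plin2 and Plin5, droplet coat proteins of liver, did not pass in either comparison, with differences from -0.10 to 0.43.

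Of 27 tested genes of hormonal and kinase control, 3 were higher and 1 lower in STAM-NON against Normal, and 1 was higher and 1 lower in STAM-INS against Normal. These counts stand beside 16.3% and 13.5% of all tested genes. Hcar2, the receptor through which nicotinic acid and ketone bodies restrain lipolysis in fat cells, was -0.43, -1.26 and -1.66 in STAM-NON, -1.65, -1.26 and -2.34 in STAM-INS and -3.48, -3.84 and -3.82 in Normal, with 2 of 3 Normal arrays measured. It rose 6.05-fold and 3.89-fold (limma adjusted p = 0.00750 and 0.0128). Hcar2 entered the tests only through the STAM groups, in which it was then called higher, so these p-values do not stand apart from the filter. Sucnr1, the succinate receptor, was 4.39-fold and 4.74-fold lower (0.0460 and 0.0423). Its difference in STAM-INS was -2.25, and -1.58 without STAM-INS 2 (limma adjusted p = 0.0924). Adrb1, a beta-adrenergic receptor, and Prkar2b, a regulatory subunit of protein kinase A, rose in STAM-NON against Normal by 1.51 ± 0.43 and 1.68 ± 0.40 (limma adjusted p = 0.0478 and 0.0300). The STAM-NON and Normal arrays overlapped for Adrb1, which 2 of 3 Normal arrays measured. Adrb1 too entered the tests only through the STAM groups, so its call does not stand apart from the filter. The catalytic subunits Prkaca and Prkacb and the insulin receptor Insr did not pass, with differences from -0.37 to -0.18.

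Of 20 tested transcription factors of lipase genes, 1 was higher and 2 lower in STAM-NON against Normal, and 1 higher and 4 lower in STAM-INS against Normal. The shares over all tested genes were 16.3% and 13.5%. Foxo1, which in fasting raises Pnpla2 and is inhibited by insulin, fell in STAM-INS against Normal (difference -0.63 ± 0.15, limma adjusted p = 0.0335), and differed by -0.29 ± 0.15 in STAM-NON (0.215). In STAM-INS against STAM-NON the Foxo1 difference was -0.35 ± 0.15 (limma adjusted p = 0.574), with overlapping arrays. Its call in STAM-INS against Normal was lost in 15 of 21 alternatives. Ppara, the fasting receptor for fatty acids, fell in STAM-INS against Normal (-0.85 ± 0.19, 0.0240), and Ppard rose by 0.75 ± 0.19 (0.0397). The call of Ppara was lost in 10 of 21 alternatives and that of Ppard in 13. Neither passed in STAM-NON against Normal (-0.23 and 0.29, limma adjusted p = 0.407 and 0.313). The same held in STAM-INS against STAM-NON (-0.63 and 0.46, limma adjusted p = 0.472 and 0.562). Nr1h4, the bile acid receptor, fell in STAM-NON and STAM-INS (differences -0.45 and -0.50, limma adjusted p = 0.0479 and 0.0379), and Mitf, a lysosomal gene regulator, rose by 0.72 in STAM-NON (0.0316). Of 23 lysosomal and lipophagy genes, which work beside Lipa, 1 fell in STAM-NON against Normal, the membrane protein Lamp2 (-0.49 ± 0.13, limma adjusted p = 0.0394). In STAM-INS against Normal 2 fell, the cholesterol exporter Npc1 (-0.73 ± 0.16, 0.0263) and the autophagosome protein Map1lc3b (-0.36 ± 0.10, 0.0483). Among all tested genes, 8.39% were called lower in STAM-NON and 7.29% in STAM-INS against Normal.

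Many of these list calls rested on single arrays. Over the 6 lists there were 20 calls in STAM-NON against Normal, of which 7 held when each of the 9 arrays was left out in turn, namely Ces2a, Ces2c, Hcar2, Acsl3, Cidea, Lpl and Mlxipl. In STAM-INS against Normal there were 19 calls, of which 4 held, Ces2a, Ces2c, Hcar2 and Acsl3. Of the genes named here, Hcar2 and Cidea entered the tests only through the STAM groups, so their calls do not stand apart from the filter. Across all 21 alternatives, 0 of the 20 calls in STAM-NON held, and 2 of the 19 in STAM-INS, Ces2a and Ces2c. The 7 calls named for STAM-NON were each lost in 3 or 4 of the 21. In STAM-NON against Normal, the calls of Lamp2 and Nr1h4 were each lost in 18, that of Lmf1 in 17 and that of Adrb1 in 15. In STAM-INS against Normal, the call of Map1lc3b was lost in 16, that of Foxo1 in 15, that of Nr1h4 in 14 and that of Ppard in 13.

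Markers of other cells that carry lipases were also measured. Of the adipocyte markers, 5 of 10 were tested, and the defining markers Adipoq, Lep, Retn, Plin1 and Ucp1 were not. Lep was well above background on 0 arrays, and Plin1 and Ucp1 on 1 each. Adipoq and Retn were each well above background on 3 arrays, 2 of STAM-NON, 1 of STAM-INS and 0 of Normal. Fabp4, which macrophages and endothelium also express, rose 7.23-fold in STAM-NON against Normal (limma adjusted p = 0.0345). The summed adipocyte list was 76.3 to 172 times the 75th percentile in STAM-NON, 51.4 to 171 in STAM-INS and 199.5 to 398 in Normal. That sum was carried by Car3, also a liver gene, at 8.23 in Normal against 5.94 in STAM-NON and 6.01 in STAM-INS in mean. The other 4 tested markers were higher in mean in both STAM groups than in Normal, and the list median was 1.44 in STAM-NON and 0.54 in STAM-INS. Of the 12 endothelial markers, 1 rose in STAM-NON against Normal, Lyve1, and of the 12 stellate cell and myofibroblast markers 1 rose, Lum. Both counts stand beside 7.94% of all tested genes called higher. Of the 12 pancreatic acinar markers 6 were tested, and Pnlip, pancreatic lipase, was well above background on 0 arrays. In that list Cela1 rose in both comparisons with Normal, by 2.64 and 1.95, and Ctrb1 fell in STAM-NON. The part of these cells in the lipase levels was not tested.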

How the data were processed

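Liver total RNA of 9 male mice was labelled with Cy3 and hybridised to Agilent SurePrint G3 mouse arrays. Per the labels it was extracted with a FAVORGEN kit, while the study's methods name a Qiagen kit. The deposited files hold the authors' scanner output from Feature Extraction 11.5.1.1 as linear intensity (processed signal, median signal and local background), not normalised between arrays. No normalisation or test specific to the arrays is given in the sources used here. The study's general statistics name an unpaired two-sided test of means for 2 groups, called here the methods' t-test and run as an alternative.

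Groups and replicate numbers came from the sample titles. The methods give 3 mice per group for the arrays. Control spots and flagged spots (161 to 217 per array) were left out, no spot of a member was flagged or saturated, and spots of 1 probe were averaged. Processed signals were taken as log2 and centred on each array's 75th percentile. Tests were run on the 26289 of 55681 probes, for 13389 named genes, that had a share of 0.5 or more of their spots well above background on each of the 3 arrays of any group. The array was designed on mm9. Accessions, without versions, named 27656 probes through a RefSeq table of GRCm38.p6, which was used for names and for gene order. Promoter sequences come from RefSeq on GRCm38.p6, with entries for 8 of the 9 genes.

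Comparisons used limma (version 3.58.1, R version 4.3.3) on all 9 arrays (two-sided, 6 residual degrees of freedom) with Benjamini-Hochberg adjustment over all tested probes at 0.05. A gene is represented by its tested probe with the highest mean. Folds over a floor divide the brighter group's mean by the mean of the dimmer group after each of its arrays was raised to that array's lowest signal well above background, where it lay under it. Since the floor comes from any probe on the array, such a fold is not a strict lower limit for a given probe. The number of arrays limits the precision. Named genes are the 9 members, up to 4 genes past the threshold per list and comparison by size of difference, and for each member past the threshold the 3 genes with the nearest profile. Other genes were named after their values were seen, for their roles. Members and lists were chosen with earlier results of these data known. Alternatives were normexp (on the median signal, offset 50, since the mean signal was not used here), quantile normalisation, 3 other centrings, no filter, a fit of 2 groups, blocks for row number on the slide and replicate number, trend and robust estimation, the methods' t-test, and each array left out. The code was tested on simulated data, and figures were drawn with matplotlib.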

Additional observations from a re-analysis of the deposited data

Results flagged for a closer look

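One probe of Mgll, the monoglyceride lipase gene, was outside the tests because no group had it well above background on all arrays. It was nevertheless well above background on 3 STAM arrays and on 0 Normal arrays, which is why it is listed. Its centred log2 signal was -4.08, -5.98 and -4.50 in STAM-NON, -4.73, -5.97 and -4.34 in STAM-INS and -4.60, -5.22 and -5.08 in Normal, so the groups overlap. The 3 arrays were STAM-NON 1, STAM-NON 3 and STAM-INS 1, which had 59.3%, 63.1% and 65.0% of all spots above background, the highest shares of the 9 arrays. The part of that share in the detection of this probe was not tested. The other 3 probes of Mgll were above background on all 9 arrays.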

How the results depend on the processing

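In STAM-NON against Normal, the count of members past the threshold was 1 (Lipc). It was 0 with no filter on dim probes, with the row number on the slide as a block and by the methods' t-test. Those settings called 0.435%, 0.0571% and 0.0989% of all probes, in that order. No count is given without the 3 arrays with the most spots above background. That setting was chosen after seeing the data and leaves STAM-NON with 1 array assumed to vary like the others. With 1 array left out the count was 1 to 2. In STAM-INS against Normal the count was 2. It was 1 after normexp, quantile normalisation, and centring on the percentile over detected probes, the median or the E1A spike-ins. It was 0 with no filter, the row number block and the replicate block, beside 1.01%, 8.01% and 6.85% of all probes. With 1 array left out the count was 0 to 3. In STAM-INS against STAM-NON the count, over 1 probe per gene, was 0 in all alternatives run, while the second probe of Pnpla3 passed in 2 of 21 (limma adjusted p = 0.0287 without STAM-NON 3 and 0.0321 without the 3 arrays above). The ratio of Pnpla2 to G0s2 had no stable sign. In STAM-NON against Normal it was 0.01, -0.0229 after normexp, and -0.51 to 0.69 with 1 array left out. In STAM-INS against STAM-NON it was -0.37, and -1.05 to 0.15 with 1 array left out, the highest being without STAM-NON 3. Same-numbered arrays did not deviate together (r from -0.29 to 0.15), so the replicate block is only such an alternative. The median over all probes in STAM-NON against Normal moved from -0.13 to 0.14 with spike-in centring, where 2443 probes were higher and 438 lower, against 1672 and 2418 in the main setting. The direction of Lipc, of Pnpla2 and of Pnpla3 was the same under all centrings in each comparison. With 3 arrays a group and dim probes near background, fold changes of Pnpla3 and Lipg are limited by signal over background. The causes of these shifts were not tested.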
